A study of Mus musculus with 9 samples.

Results

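The transcriptome of mouse primary Leydig cells exposed to diphenyl phosphate (DPhP) was compared with that of control cells by RNA sequencing of 3 libraries per group. Genes were included when they reached at least 1 FPKM (fragment counts scaled by transcript length and by library size) in at least 3 of the 9 libraries of the series, which held for 12369 of the 19058 genes listed. All cells were wild type (WT), came from testis and are labelled as primary Leydig cells. The DPhP group is labelled with DPhP as its treatment and the control group with Control, and the remaining 3 libraries came from cells exposed to triphenyl phosphate (TPhP). The labels give no dose, exposure time, age, strain or vehicle. They also leave unstated whether the libraries within a group were separate cultures or animals, so p-values refer to the variation among these libraries, part or all of which may be technical.

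Leydig cells lie between the seminiferous tubules of the testis and make androgens from cholesterol. Cholesterol enters the mitochondrion with the help of STAR and is cleaved by CYP11A1 with electrons from FDXR and FDX1. The product is then converted by HSD3B, CYP17A1 and HSD17B3. Adult Leydig cells also secrete the peptide hormone INSL3 and depend on luteinizing hormone, whose receptor LHCGR raises cAMP. TPhP, an organophosphate, is added to plastics as a flame retardant, and DPhP is its diester metabolite, which lacks a phenyl ester.

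The DPhP libraries stood apart from all others. Pearson correlations across tested genes were 0.997 among DPhP libraries and 0.953 to 0.956 between DPhP and control libraries, whereas TPhP and control libraries correlated at 0.995 to 0.996. The sum of FPKM was 398680 to 401930 in DPhP, 419107 to 422363 in TPhP and 421963 to 428928 in control libraries, and genes listed at 0 numbered 2444 to 2546, 1977 to 2066 and 1743 to 2002 in the same order. The label was checked in control libraries, where Insl3, Hsd3b1 and Cyp11a1 were abundant, Lhcgr was at 1.5 FPKM, Cyp17a1 was at 0.14 FPKM and Hsd17b3 was listed at 0, while the fibroblast gene Col3a1 and the macrophage gene Lyz2 were at 1929 and 1063 FPKM. Read depth is unknown, so no counting interval is given. In a bulk library, fewer cells of a type and less RNA of a gene per cell cannot be told apart.

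Expression differed between DPhP and control cells for most of the transcriptome, and for most genes by a small amount. limma called 8782 genes at an adjusted p under 0.05, which is 71.0% of those tested, with 4089 higher (33.1%) and 4693 lower (37.9%) in DPhP. The median log2 fold change, DPhP minus control on the log2(FPKM + 1) scale used throughout, was -0.02, and its quartiles were -0.26 and 0.19. Of the called genes, 6328 (72.1%) differed by less than 0.5 on the log2 scale. The call with a change of at least 2-fold held for 694 genes (5.61%), 294 higher (2.38%) and 400 lower (3.23%), and at 4-fold 27 genes remained higher and 60 lower. In the same model TPhP against control called 769 genes (6.22%), 319 higher (2.58%) and 450 lower (3.64%), and 2 of them fell by 2-fold or more (0.0162%). DPhP against TPhP called 8495 (68.7%), 3823 higher (30.9%) and 4672 lower (37.8%), of which 660 reached 2-fold (5.34%), 304 higher (2.46%) and 356 lower (2.88%). With genes divided by mean level into 4 bins of equal size, the lowest bin held the largest shares of 2-fold differences, 3.82% higher and 4.79% lower, and the highest bin held 1.42% and 3.33%.

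The direction of the small differences depended on scaling. When each library was rescaled to a common sum of FPKM, the median over all genes was 0.06, 8944 genes were called and 58.3% of them were higher, against 46.6% of the calls on the values as deposited. Differences also followed transcript length and base composition. Over 5 bins of equal size the median log2 fold change was -0.18 for the shortest transcripts and 0.08 for the longest. It was 0.11 in the bin of lowest GC content and -0.19 in the bin of highest, while TPhP against control gave 0.04 and -0.04 there. After removal of both trends 8096 of 12180 genes were called. Beyond the rescaling and the removal of these trends, the part of such library properties in single differences was not tested.

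**Figure D1:**
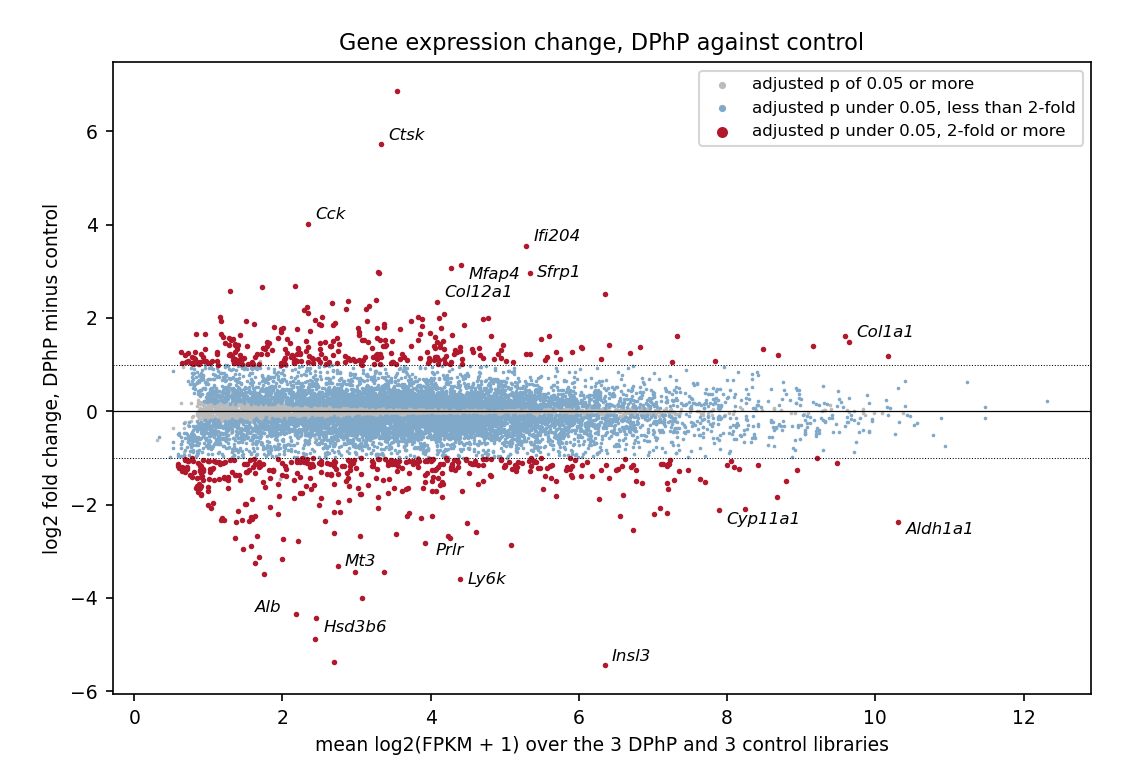
Each point is a tested gene, with its mean log2(FPKM + 1) over the DPhP and control libraries on the horizontal axis and its log2 fold change, DPhP minus control, on the vertical axis. Dotted lines mark a 2-fold change, and red points are the 694 genes called at 2-fold or more. Ctsk (5.72) stands highest and Insl3 (-5.45) lowest among the genes labelled.

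Among all genes Aldh1a1 lost the most FPKM and Col3a1 gained the most. Aldh1a1, which encodes a retinaldehyde dehydrogenase, was at 550.89, 552.35 and 564.45 FPKM in DPhP libraries, against 2863.69, 2925.78 and 2873.77 FPKM in control libraries. All DPhP values lay far below all control values (log2 fold change -2.37, SE 0.025, adjusted p = 2.8e-14, limma). The next losses were those of Tpt1 (translationally controlled tumour protein), Fth1 (ferritin heavy chain), Gas6 (a ligand of TAM receptors), the metallothionein gene Mt1, Insl3, the protease gene Prss35, Cpe (carboxypeptidase E), Hsd3b1 and the protease gene Htra1. Together these 10 genes held 12.1% of the summed loss. On the other side Col3a1 was at 3002 ± 46.9 FPKM in DPhP and 1929 ± 25.5 FPKM in control libraries (SD, n = 3 each). Col1a2, Bgn (biglycan), Col1a1, Eef1a1 (an elongation factor), Lgals1 (galectin 1), Acta2, Lyz2, Tagln and Fstl1 followed, and the 10 genes held 18.1% of the summed gain. Of the 20 most abundant genes in DPhP libraries 14 were also among the 20 most abundant in control libraries.

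The gene with the largest rise by the rule for named genes was Ctsk, which encodes cathepsin K, a collagen-degrading protease best known from osteoclasts. It was at 71.68, 72.92 and 71.84 FPKM in DPhP libraries, against 0.39, 0.42 and 0.36 FPKM in control libraries (log2 fold change 5.72, SE 0.051, adjusted p = 1.43e-14). In control cells it was barely measured, and in DPhP cells it stood above the steroidogenic gene Fdx1 (50.9 FPKM). Cck, the gene of the peptide hormone cholecystokinin, was at 18.72, 18.62 and 21.12 FPKM in DPhP libraries, against 0.24, 0.28 and 0.26 FPKM in control libraries (4.02, adjusted p = 1.03e-12). The groups were again widely separated. Mfap4, which encodes a microfibril-associated glycoprotein, was at 62.0 ± 2.66 FPKM in DPhP and 6.18 ± 0.50 FPKM in control libraries (3.13). Sfrp1, a secreted Wnt antagonist, reached 112 ± 4.19 FPKM against 13.4 ± 0.0781 FPKM in control (2.97), and Mdk, the heparin-binding growth factor midkine, 26.7 ± 1.41 against 2.59 ± 0.62 FPKM (2.96). Emb (embigin, a cell surface glycoprotein), Mmp3 (stromelysin), Wnt2b and Col12a1 rose by log2 fold changes of 2.98, 2.39, 2.36 and 2.34. Abcb1b, a drug efflux transporter, was at 10.4 ± 0.127 FPKM in DPhP and 0.78 ± 0.0361 FPKM in control libraries (2.68), and its relative Abcb1a rose as well (0.63). Ifi204, an interferon-inducible gene of the p200 family, was at 132 ± 4.67 FPKM in DPhP and 10.5 ± 1.28 FPKM in control libraries (3.54), with 79.3% of its sequence unique to it. Nxf3 and the glutathione transferase gene Gstm6 rose by 2.33 and 2.26. Morf4l1b, for which uniqueness could not be computed, was at 195 ± 8.59 FPKM in DPhP and 33.6 ± 4.52 FPKM in control libraries (2.51).

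The largest falls mixed Leydig genes with transcripts of other tissues, and both are described with their lists. Outside those lists Ly6k, which encodes a GPI-anchored protein, was at 4.89, 5.27 and 4.95 FPKM in DPhP libraries, against 74.81, 75.96 and 66.74 FPKM in control libraries (log2 fold change -3.60, adjusted p = 1.51e-13). Mt3, a metallothionein gene, was at 1.12 ± 0.0950 FPKM in DPhP and 20.3 ± 1.81 FPKM in control libraries (-3.33), and the more abundant Mt1 and Mt2 fell too (-1.83 and -1.15). Stc1, which encodes the secreted glycoprotein stanniocalcin 1, was at 11.5 ± 0.480 FPKM in DPhP and 90.6 ± 6.72 FPKM in control libraries (-2.87). Tent5c, a poly(A) polymerase gene, was at 4.73 ± 0.646 against 39.3 ± 1.61 FPKM in control (-2.82). Zfp979, a zinc finger gene with 80.2% unique sequence, was at 1.81, 1.11 and 1.32 FPKM in DPhP libraries, against 23.51, 26.64 and 24.97 FPKM in control libraries (-3.44). Mt3, Stc1 and Tent5c were also lower in TPhP libraries against control, by log2 fold changes of -0.61, -0.64 and -0.39, and all 3 were lower in DPhP than in TPhP libraries (-2.71, -2.23 and -2.44).

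Genes that mark Leydig cells fell as a group. Their list, like the others, was chosen with earlier results of these data known, so its counts describe and do not test. Of the 20 markers listed 17 were tested, 14 were lower, none was higher, and 10 fell by 2-fold or more. Among all tested genes 37.9% were lower and 3.23% fell by 2-fold or more. The median log2 fold change of the markers was -2.09, where all tested genes had -0.02, and it was -1.03 over the 14 markers with at least 90% unique sequence, of which 11 were lower. Their summed level was 500.95, 499.53 and 512.20 FPKM in DPhP libraries, against 2146.02, 2175.80 and 2057.77 FPKM in control libraries. Insl3, Hsd3b1 and Cyp11a1 made up most of the control sum. The group sums did not approach each other, and TPhP libraries, at 2117.58 to 2177.30 FPKM, lay with control.

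Insl3 showed the largest fall of any named gene. It was at 11.26, 10.36 and 12.39 FPKM in DPhP libraries, against 529.04, 556.44 and 524.86 FPKM in control libraries (chromosome 8, 71689252 to 71690577 in GRCm38.p6; log2 fold change -5.45, SE 0.052, adjusted p = 1.43e-14). Only 39.9% of its sequence was unique, because 60.1% of its 75-base stretches are also annotated in a transcript of the overlapping gene Jak3, a kinase gene. Jak3 itself was low, at 6.72 against 3.93 FPKM in control, and the sum of both was 18.1 in DPhP and 541 FPKM in control libraries. NR5A1 (steroidogenic factor 1) is the nuclear receptor known to bind many steroidogenic promoters, and the region before Insl3 is shown since this gene fell most and carries the NR5A1 motif at more than 1 place. The letters below are the 200 bases that end 50 bases before the RefSeq start of Insl3 (RefSeq, GRCm38.p6, chr8:71689002-71689201, plus strand), 5′ to 3′, with the matches to CAAGGTC or CAAGGCC in capitals.
Insl3 promoter: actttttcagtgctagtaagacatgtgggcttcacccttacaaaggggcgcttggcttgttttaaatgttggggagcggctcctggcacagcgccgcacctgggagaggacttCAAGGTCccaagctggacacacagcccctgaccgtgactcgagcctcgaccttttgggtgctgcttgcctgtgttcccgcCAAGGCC

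Searched on both strands from 250 bases before to 50 after each gene start, either form of this motif was in 9.87% of the 12713 promoters of tested genes. It was in 15.7% of promoters of genes lower by 2-fold or more, in 8.06% of those higher by 2-fold or more, and in 5 of the 17 promoters available for 14 of the tested Leydig markers. Other motifs also differed from their share among all promoters, so such a difference was not particular to this one. Among genes lower by 2-fold or more, AP-1 sites were in 9.97% of promoters (5.14% of all) and CArG boxes in 2.62% (1.36%). TATA boxes were in 9.97% (7.17%) and cAMP response elements in 1.57% (2.92%). Among genes higher by 2-fold or more, AP-1 sites were in 8.42% of promoters and TATA boxes in 12.5%. CArG boxes were in 1.10% and cAMP response elements in 0.733% there. AP-1 sites and TATA boxes were thus above their overall share in both sets, unlike the NR5A1 motif and the CArG box. The 4 markers other than Insl3 with a match to the NR5A1 motif are shown to let the surroundings of the match be compared, each on the strand of its gene with the match in capitals. For Fdxr and Klk1b21 the match is on the opposite strand and reads as its reverse complement. Bhmt, Fdxr and Klk1b21 fell and Ptgds was not called, and the presence of the letters says nothing about binding.
Bhmt, 74 bases before the start (chr13:93637816-93637842, minus strand): gaccccagatCAAGGTCagaggcctgc
Fdxr, 141 bases before (chr11:115277094-115277120, minus strand): ctgggggcggGGCCTTGgcgagatggg
Klk1b21, 246 bases before (chr7:44102042-44102062, plus strand): ccctGACCTTGccatctggct
Ptgds, 232 bases before (chr2:25469965-25469991, minus strand): caggagtgggCAAGGTCtgagccagtt

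Within the steroid pathway the fall was uneven. Star was at 29.93, 31.00 and 32.35 FPKM in DPhP libraries, against 29.58, 32.08 and 33.44 FPKM in control libraries, and the groups overlapped throughout (-0.03, adjusted p = 0.64). Cyp11a1 was at 110.49, 113.97 and 114.18 FPKM in DPhP libraries, against 497.30, 507.22 and 466.31 FPKM in control libraries (-2.11). Its electron carriers differed in extent, since Fdx1 (ferredoxin) was at 50.9 ± 3.42 against 138 ± 5.77 FPKM in control (-1.42) and Fdxr (ferredoxin reductase) fell by only 0.47 on the log2 scale. Hsd3b1 was at 142.21, 144.95 and 150.63 FPKM in DPhP libraries, against 645.08, 638.48 and 595.94 FPKM in control libraries (-2.09). The adult Leydig isoform Hsd3b6 was at 0.22, 0.14 and 0.18 FPKM in DPhP libraries, against 25.36, 24.35 and 24.15 FPKM in control libraries (-4.44), so that it was close to the lower end of what the table can show. Scarb1, the receptor for high-density lipoprotein, fell by 0.56 on the log2 scale. Cyp17a1 and Hsd17b3, the later enzymes of testosterone synthesis, and the estrogen sulfotransferase gene Sult1e1 were near 0 in both groups and were not tested.

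Receptor and secreted markers of Leydig cells moved with the enzymes. Prlr, the prolactin receptor gene, was at 6.51, 6.16 and 6.76 FPKM in DPhP libraries, against 51.41, 43.41 and 50.35 FPKM in control libraries (log2 fold change -2.72, adjusted p = 1.34e-11). Lhcgr was low in both groups, at 0.60 against 1.5 FPKM in control (-0.64). The kallikrein genes Klk1b24, Klk1b21 and Klk1b27, whose products are serine proteases, stood at 0.1, 0.25 and 0.03 FPKM in DPhP and at 7.12, 6.94 and 4.03 FPKM in control libraries. Their sequences overlap in part, and Klk1b24 and Klk1b21 summed to 0.35 FPKM in DPhP and 14.1 FPKM in control libraries. Bhmt, the betaine-homocysteine methyltransferase gene, was at 0.33 ± 0.051 against 10.9 ± 0.395 FPKM in control (-3.16). Hsd11b1, a glucocorticoid-converting enzyme gene, was not called (17.2 against 16.8 FPKM in control, log2 fold change 0.03), and neither was Ptgds, a prostaglandin D synthase gene (-0.46). A pair of genes best known from the adrenal cortex fell as well. Cyp11b1, the 11-beta-hydroxylase gene, was at 4.77, 4.87 and 5.05 FPKM in DPhP libraries, against 26.45, 28.09 and 26.89 FPKM in control libraries (-2.25), and Mrap, an accessory protein of the ACTH receptor, was at 30.2 ± 1.89 against 71.0 ± 3.28 FPKM in control (-1.21). The adrenal markers Cyp21a1, Cyp11b2 and Mc2r were near 0 in both groups.

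**Figure D2:**
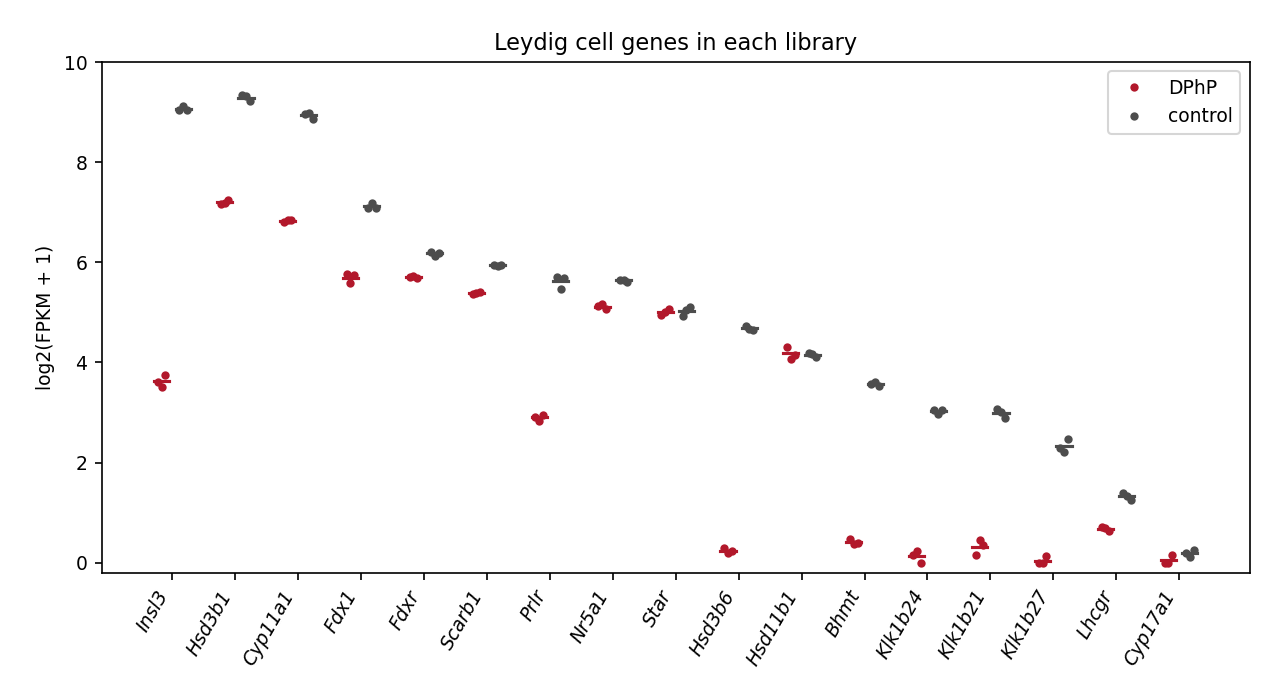
Points are single libraries (3 per group) and bars are group means of log2(FPKM + 1) for 17 Leydig cell genes, with DPhP in red on the left and control in grey on the right of each pair. DPhP lies below control with a wide gap for Insl3, Hsd3b6, Prlr, Bhmt and the kallikrein genes, while Star and Hsd11b1 overlap.

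Transcription factors that regulate Leydig genes had a smaller median difference and members in both directions. Of 20 listed 17 were tested, 8 were higher (47.1%) and 7 lower (41.2%), none by 2-fold, with a median of 0.12, where all tested genes had 33.1% higher and 37.9% lower. With GC and length trends removed 5 were higher and 4 lower, with a median of 0.02. Gata4 was at 56.28, 59.86 and 57.12 FPKM in DPhP libraries, against 90.71, 91.18 and 88.09 FPKM in control libraries (-0.63). Nr5a1 was at 33.89, 34.76 and 32.38 FPKM in DPhP libraries, against 49.44, 49.43 and 47.91 FPKM in control libraries (-0.53). Neither group overlapped the other for these genes, although both remained well expressed in DPhP cells. Cebpb fell by 0.55 on the log2 scale, but was not called once GC and length trends were removed (-0.07). Nr4a1, the nuclear receptor gene induced by luteinizing hormone, went the other way, at 12.6, 11.56 and 12.78 FPKM in DPhP libraries against 7.19, 5.97 and 6.35 FPKM in control libraries (0.83). Lhx9 and Creb1 rose by 0.55 and 0.44. Nr3c1 (glucocorticoid receptor) and Crem did not pass, although both were called with a common sum.

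Markers of immature and stem Leydig cells changed in both directions and mostly by small amounts. All 11 were tested, 8 were higher (72.7%) and 3 lower (27.3%), 1 of each by 2-fold or more, with a median of 0.17, where all tested genes had 33.1% higher and 37.9% lower. With GC and length trends removed 6 were higher and 2 lower, with a median of 0.08. Their summed level was 587 to 608 FPKM in DPhP and 616 to 640 FPKM in control libraries. Dlk1, a Notch ligand-like gene of immature cells, was at 16.68, 15.54 and 15.56 FPKM in DPhP libraries, against 5.60, 5.92 and 4.79 FPKM in control libraries (1.40). Nes (nestin), Gli1 and Thy1 rose by 0.73, 0.63 and 0.62, with Gli1 and Thy1 under 1 FPKM in control. Tcf21, Pdgfra and Nr2f2, which mark interstitial progenitors, were among the abundant members and rose by 0.15, 0.15 and 0.17, of which the call on Nr2f2 was lost with GC and length trends removed (0.08). Ly6a (Sca-1) fell to 68.0 ± 3.80 FPKM in DPhP, against 158 ± 7.47 FPKM in control (-1.20), and Lifr fell by 0.21 on the log2 scale.

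Contractile genes of the peritubular myoid cell, a smooth muscle cell around the tubule, rose. Of 15 markers 13 were tested, 11 were higher, 5 of them by 2-fold or more, and 2 were lower, with a median of 0.77 (33.1% of all tested genes were higher, 2.38% by 2-fold or more). Acta2 (smooth muscle actin) was at 943.71, 894.67 and 930.29 FPKM in DPhP libraries, against 325.72, 354.80 and 370.02 FPKM in control libraries (1.40, SE 0.041, adjusted p = 8.71e-11). Actg2, the other smooth muscle actin, was at 28.29, 25.23 and 26.95 FPKM in DPhP libraries, against 6.45, 6.31 and 7.83 FPKM in control libraries (1.83). Both genes were separated between the groups in every library. Cnn1 (calponin), Myh11 (smooth muscle myosin) and Tagln (transgelin) rose by 1.51, 1.33 and 1.20, and Myh11 and Cnn1 were low, at 4.41 and 7.40 FPKM in DPhP. Tpm1 and Tpm2, tropomyosin genes that many cells use, fell by 0.22 and 0.23, but Tpm2 was not called with quantile normalization (-0.10) or with GC and length trends removed (-0.06), which left 1 of the 13 lower. Myocd, the master regulator of the smooth muscle programme, was at 0.1 FPKM in both groups.

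Fibroblast markers rose with them. Of 13 listed 12 were tested, 9 were higher, 6 of them by 2-fold or more, and Cd34 alone fell (-0.81), with a median of 0.89. All tested genes had 33.1% higher, 2.38% by 2-fold or more, and 37.9% lower. Col1a1 was at 1297.60, 1383.39 and 1343.53 FPKM in DPhP libraries, against 473.81, 469.51 and 483.57 FPKM in control libraries (1.49). Fbln1 (fibulin 1), Mfap5 and Dpt (dermatopontin) rose by 2.00, 1.98 and 1.79, and Lum (lumican) by 1.15. Dcn (decorin) rose by 0.20 and turned uncalled when GC and length trends were removed, and Postn and Pi16 were not called. Summed, the list reached 7289 to 7443 FPKM in DPhP, against 4153 to 4181 FPKM in control. The 6 tested pericyte markers were split, with Cspg4, Pdgfrb, Notch3 and Mcam higher (0.48 to 0.72) and the channel genes Abcc9 and Kcnj8 lower (-1.10 and -0.57), while Rgs5 was near 0.

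**Figure D3:**
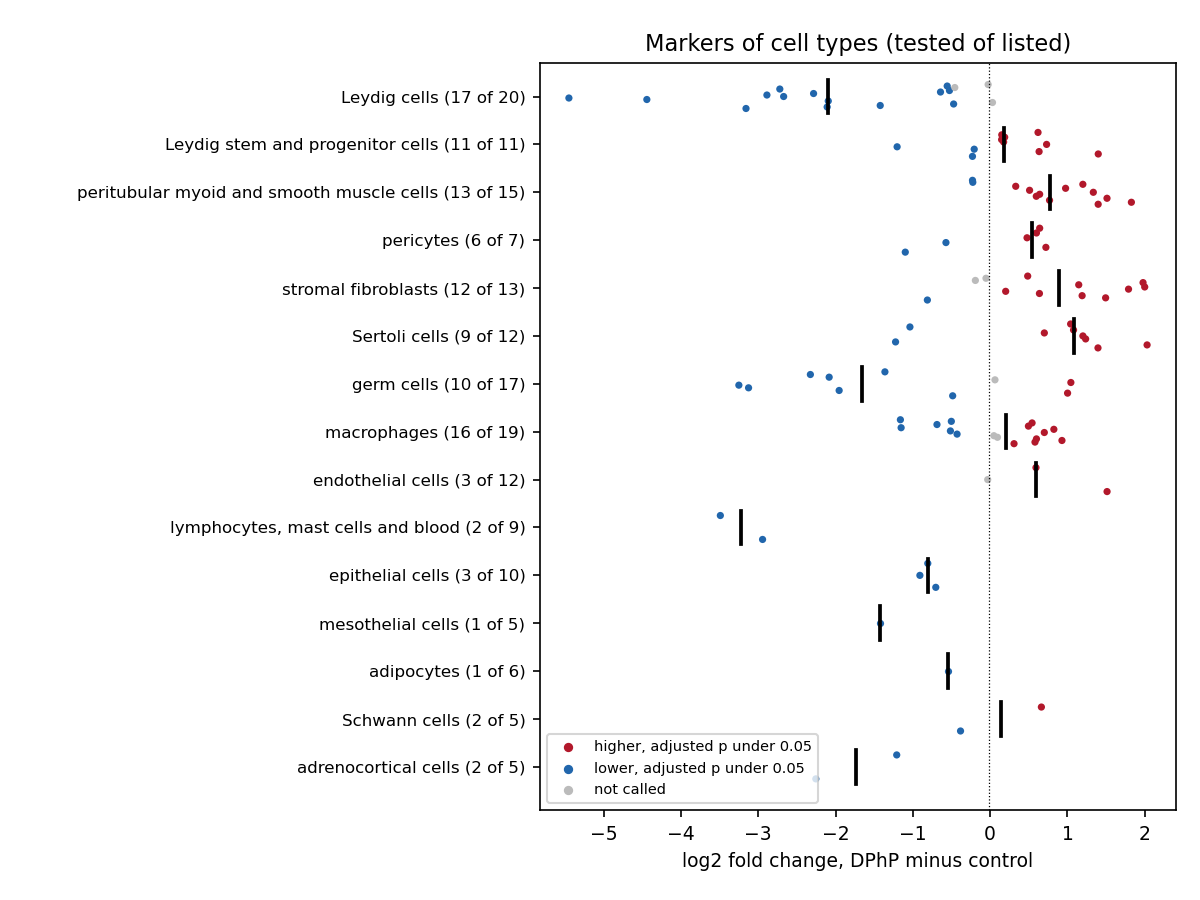
Each point is a tested marker gene at its log2 fold change, DPhP minus control, on the horizontal axis, and each row is a cell type list with the number tested of the number listed. Black bars are list medians and the dotted line is the median of all tested genes. The Leydig list lies to the left (median -2.09), and the myoid (0.77), fibroblast (0.89) and Sertoli (1.08) lists lie mostly to the right.

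Genes known from Sertoli cells, the supporting cells inside the tubules, rose without the full set of Sertoli markers. Of 12 listed 9 were tested, 7 were higher, 6 of them by 2-fold or more, and 2 were lower, with a median of 1.08. All tested genes had 33.1% higher, 2.38% by 2-fold or more, and 37.9% lower. Cldn11, a tight junction claudin, was at 28.83, 27.28 and 26.88 FPKM in DPhP libraries, against 6.95, 5.60 and 5.58 FPKM in control libraries (2.03). Wt1, a transcription factor gene of Sertoli and some interstitial cells, was at 21.89, 21 and 21.25 FPKM in DPhP libraries, against 9.48, 9.87 and 10.29 FPKM in control libraries (1.04). Aard, Dhh (desert hedgehog), Shbg and Sox9 rose by 1.39, 1.24, 1.20 and 1.08. Trf (transferrin, 21.4% unique sequence) and Defb19 fell by 1.04 and 1.22 on the log2 scale, and Amh, Fshr and Rhox5 were near 0 in both groups. The summed list was at 104 to 111 FPKM in DPhP, against 72.7 to 76.0 FPKM in control.

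Macrophages share the interstitium with Leydig cells, and their markers were present in every library. Of 19 listed 16 were tested, 8 were higher (50%), none by 2-fold, and 6 were lower (37.5%), 2 of them by 2-fold or more, where all tested genes had 33.1% higher and 37.9% lower. Lyz2 (lysozyme) was at 1545.80, 1422.27 and 1529.53 FPKM in DPhP libraries, against 1078.27, 1064.17 and 1045.97 FPKM in control libraries (0.50). The complement genes C1qa, C1qb and C1qc rose by 0.58, 0.93 and 0.60, and Adgre1 (F4/80) by 0.31. In contrast Tyrobp, a signalling adaptor, was at 70.3 ± 3.10 FPKM in DPhP and 158 ± 2.57 FPKM in control libraries (-1.16), Itgam (CD11b, 28.3% unique sequence) fell by 1.15 and Csf1r by 0.43. H2-Aa and Cd74, of antigen presentation, were under 1 FPKM, and Cd68 and Cd14 were not called. The summed list was at 1901 to 2019 FPKM in DPhP, against 1615 to 1632 FPKM in control, with Lyz2 as most of it. Of the 12 endothelial markers 9 were too low to test, and Cdh5 (VE-cadherin) was at 28.78, 29.82 and 29.23 FPKM in DPhP libraries, against 10.18, 9.41 and 9.27 FPKM in control libraries (1.51), while Pecam1, Vwf and Tie1 were below 1 FPKM in both groups.

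Transcripts typical of sperm, blood and liver were found in all control and TPhP libraries and were nearly missing from all DPhP libraries. Prm1, Prm2, Tnp1 and Tnp2, the protamines and transition proteins that pack sperm chromatin, summed to 0.38, 0 and 0 FPKM in DPhP libraries, against 35.99, 22.78 and 17.79 FPKM in control libraries. The alpha and beta globin genes Hba-a1, Hba-a2, Hbb-bs and Hbb-bt were listed at 0 in all 3 DPhP libraries and summed to 23.76, 31.96 and 18.78 FPKM in control libraries. The liver genes Alb, Ahsg, Apoa1 and Apoc1 summed to 1.65, 2.05 and 2.5 FPKM in DPhP libraries, against 39.98, 46.53 and 36.73 FPKM in control libraries. The liver list was drawn up after the values were seen, and all 9 of its tested members were lower. TPhP libraries lay close to or somewhat below control, at 20.29 to 26.43 FPKM for the sperm genes, 14.92 to 19.85 FPKM for the globins and 27.89 to 35.27 FPKM for the liver genes. These low-level groups count among the genes lower by 2-fold or more. They were low in the same libraries as the Leydig genes. The labels give no strain, cell isolation or library batch. DPhP exposure and separate animals, isolation or library preparation therefore cannot be told apart in any difference between DPhP and control given here.

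Of 17 germ cell markers 10 were tested, 7 were lower and 2 higher, and the 3 epithelial markers tested were lower. The germ cell list holds Prm1, Prm2, Tnp1 and Tnp2, the sperm genes given above, so its count is not separate from theirs. All tested genes had 37.9% lower and 33.1% higher. Kit, a receptor gene that Leydig cells also express, was at 2.35, 2.39 and 2.51 FPKM in DPhP libraries, against 11.93, 12.31 and 12.45 FPKM in control libraries (-1.95), and Zbtb16 (PLZF) fell by 1.36 on the log2 scale. Dmrt1 and Sycp1 rose to 2.1 and 1.5 FPKM in DPhP, against 0.54 and 0.21 FPKM in control (1.0 and 1.04). The keratins Krt7, Krt8 and Krt18 were at 0.33 to 0.76 FPKM in DPhP and 1.49 to 1.92 FPKM in control libraries, and Msln, a mesothelial gene, was at 0.43 against 2.84 FPKM in control. Epcam and Cdh1 were below 1 FPKM in both groups.

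**Figure D4:**
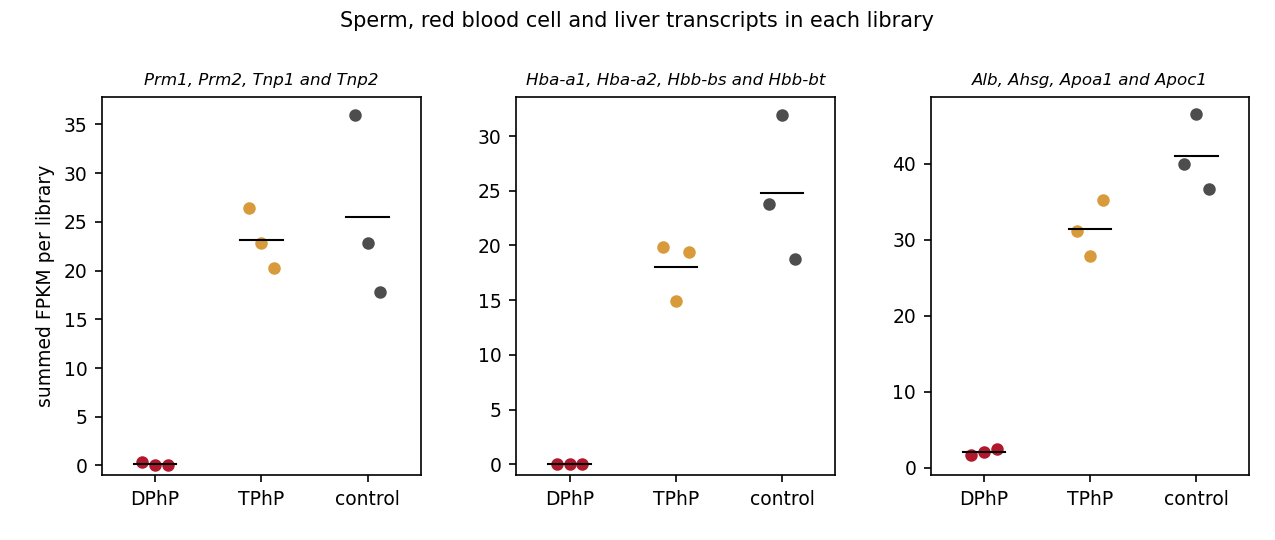
Each point is the summed FPKM of 4 genes in a single library, with DPhP, TPhP and control from left to right and black bars as group means of 3 libraries. The DPhP libraries sit at or near 0 for the sperm and globin genes and at 1.65 to 2.5 FPKM for the liver genes, below every TPhP and control library.

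The matrix genes extended the fibroblast pattern, with some members in common. Col1a1, Col1a2 and Col3a1 are in both the fibroblast and collagen lists, and Postn is in the fibroblast and other matrix lists. Of 22 collagen genes 20 were tested, 14 were higher, 5 of them by 2-fold or more, and 3 were lower, with a median of 0.53. All tested genes had 33.1% higher, 2.38% by 2-fold or more, and 37.9% lower. The fibrillar and beaded collagens Col5a1 and Col6a3 rose by 1.07 and 1.43, whereas the basement membrane collagens Col4a1, Col4a2 and Col4a5 were the 3 that fell (-0.28, -0.29 and -0.40). Of 37 other matrix genes 27 were higher, 9 of them by 2-fold or more, and 5 were lower. Bgn was at 1311.92, 1351.09 and 1370.48 FPKM in DPhP libraries, against 426.30, 440.06 and 449.05 FPKM in control libraries (1.61). Elastic fibre genes were among the risers, with Ltbp2, Mfap2, Fbln5 and Fbn2 at log2 fold changes of 1.98, 1.59, 1.22 and 1.12 and Eln (elastin) at 0.65. The crosslinking enzyme gene Lox rose by 0.95 and its relative Loxl2 fell (-0.44). Other basement membrane genes of that list differed in direction. Nid2, Nid1, Lama2 and Lamb1 rose by 0.71, 0.35, 0.25 and 0.25, Hspg2 (perlecan), Lamb2 and Lamc1 fell by 0.45, 0.42 and 0.07 on the log2 scale, and Lama1, Lama4 and Lama5 were not called. Of 25 tested matrix proteases and inhibitors 16 were higher and 9 lower, with Serpine2, Serpinf1, Adamts4 and Mmp11 up (1.85, 1.62, 1.45 and 1.26) and Adamts1 and Mmp12 down (-1.38 and -1.01).

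Several genes of secreted growth factors rose. Bmp4 was at 18.70, 17.58 and 18.65 FPKM in DPhP libraries, against 4.36, 4.46 and 4.71 FPKM in control libraries (1.81). Inhba, the activin A subunit, and Fst, its antagonist follistatin, rose by 1.34 and 0.71, while the BMP target genes Smad6, Id3 and Id1 fell by 1.23, 0.60 and 0.51 on the log2 scale. In that list 13 of 26 were higher (50%) and 10 lower (38.5%), and of 22 tested Wnt genes 12 were higher (54.5%) and 7 lower (31.8%), where all tested genes had 33.1% higher and 37.9% lower. The secreted antagonists diverged, with Sfrp1 and Dkk3 up (2.97 and 1.0) and Sfrp2 down, at 190 against 357 FPKM in control (-0.90). The Wnt target Axin2 rose by 0.30. Igf1 was at 108.97, 96.28 and 107.84 FPKM in DPhP libraries, against 39.60, 39.66 and 39.86 FPKM in control libraries (1.37). Igf2 (24.2% unique sequence) and the IGF-releasing protease gene Pappa rose by 1.78 and 1.40, and the binding protein genes split, with Igfbp4 higher (0.63) and Igfbp6 lower (-1.47). YAP target genes were 10 higher and 8 lower of 22, with Ccn2 up (0.35) and Ccn1 down (-0.51).

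Lipid genes were mostly lower. Of 24 cholesterol synthesis genes 22 fell, 2 of them by 2-fold or more, and 2 rose. All tested genes had 37.9% lower, 3.23% by 2-fold or more, and 33.1% higher. Sc5d and Msmo1, enzymes of the later sterol steps, fell most (-1.50 and -1.12). Of 21 tested genes of fatty acid oxidation and its PPAR control 17 were lower and none higher, with the dehydrogenase genes Acadl and Acadm at -0.89 and -0.66. The fatty acid synthesis list was split, 6 higher and 9 lower of 17 (7 and 7 with a common sum), with Acaca and Fasn up (0.36 and 0.37) and Elovl6 and Mlxipl down (-0.54 and -0.80).

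In the ATF4, endoplasmic reticulum stress and p53 lists more genes rose than fell. Of 22 tested ATF4 target and amino acid stress genes 18 rose, 5 of them by 2-fold or more, and 2 fell, with a median of 0.48. Asns (asparagine synthetase) was at 46.67, 48.31 and 48.25 FPKM in DPhP libraries, against 18.51, 19.55 and 17.52 FPKM in control libraries (1.32). Pycr1 of proline synthesis, Ddit4, Chac1 and Mthfd2 rose by 1.16, 1.12, 1.02 and 1.01, and Atf4 itself by 0.41. Atf3, also in that list, was at 11.1 ± 0.777 FPKM in DPhP and 25.7 ± 0.843 FPKM in control libraries (-1.14), and Ddit3 (CHOP) was not called. Of 19 endoplasmic reticulum stress genes 12 rose and 2 fell, with a median of 0.26, and the chaperone genes Hspa5 (0.48) and Hsp90b1 (0.49) were among the risers. Of 25 p53 and apoptosis genes 15 were higher (60%) and 8 lower (32%), where all tested genes had 33.1% and 37.9%. Perp rose to 3.01 FPKM, against 0.27 FPKM in control (1.66), Gadd45a and Cdkn1a rose by 0.73 and 0.43, and Trp53inp1 and Bbc3 fell by 0.95 and 0.53.

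Defences against oxidants and foreign compounds fell more often than they rose, with 4 higher and 17 lower of 28 antioxidant genes (8 and 13 with a common sum). All tested genes had 33.1% higher and 37.9% lower. Gpx3, the secreted glutathione peroxidase, was at 67.18, 66.27 and 68.76 FPKM in DPhP libraries, against 315.85, 310.98 and 299.75 FPKM in control libraries (-2.18). Osgin1, Sod1 and Prdx1 fell by 1.19, 0.83 and 0.52, Gstp1 (42.3% unique sequence) rose (0.66), and the Nrf2 targets Hmox1, Nqo1 and Srxn1 were not called. Of 16 tested xenobiotic genes 11 were lower, led by Aldh1a1, Ephx2 and Ephx1 (-2.37, -1.35 and -1.05), and 4 were higher, namely Abcb1a, Abcc1, Ahr and Cyp1b1 (0.33 to 0.63). Cyp1a1 was near 0 in both groups.

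Organelle genes changed by small amounts. Their counts stand beside 37.9% lower and 33.1% higher among all tested genes. Respiratory chain genes were 27 lower and 2 higher of 33 (median -0.26), with Atp5j, Ndufb8 and Cox6c at -0.90, -0.77 and -0.61. With a common sum the count became 21 lower and 4 higher, and with GC and length trends removed the median was -0.12. Of 39 lysosomal genes 27 were lower and 8 higher. Apart from Ctsk none reached 2-fold, and Ctsd and Ctsb, the most abundant, fell by 0.26 and 0.30. Autophagy genes were 18 lower and 3 higher of 25, among them Sqstm1 (p62) at -0.57 and Map1lc3a at -0.74. Ribosomal protein genes were 22 lower and 6 higher of 35 (median -0.15), but 15 lower and 10 higher with a common sum, and 9 lower and 14 higher with the GC and length trends removed. Only 10 of the 35 had at least 90% unique sequence, of which 7 were lower and 1 higher. The proteasome list, 10 lower (40%) and 6 higher (24%) of 25, turned to 7 lower and 12 higher with a common sum.

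**Figure D5:**
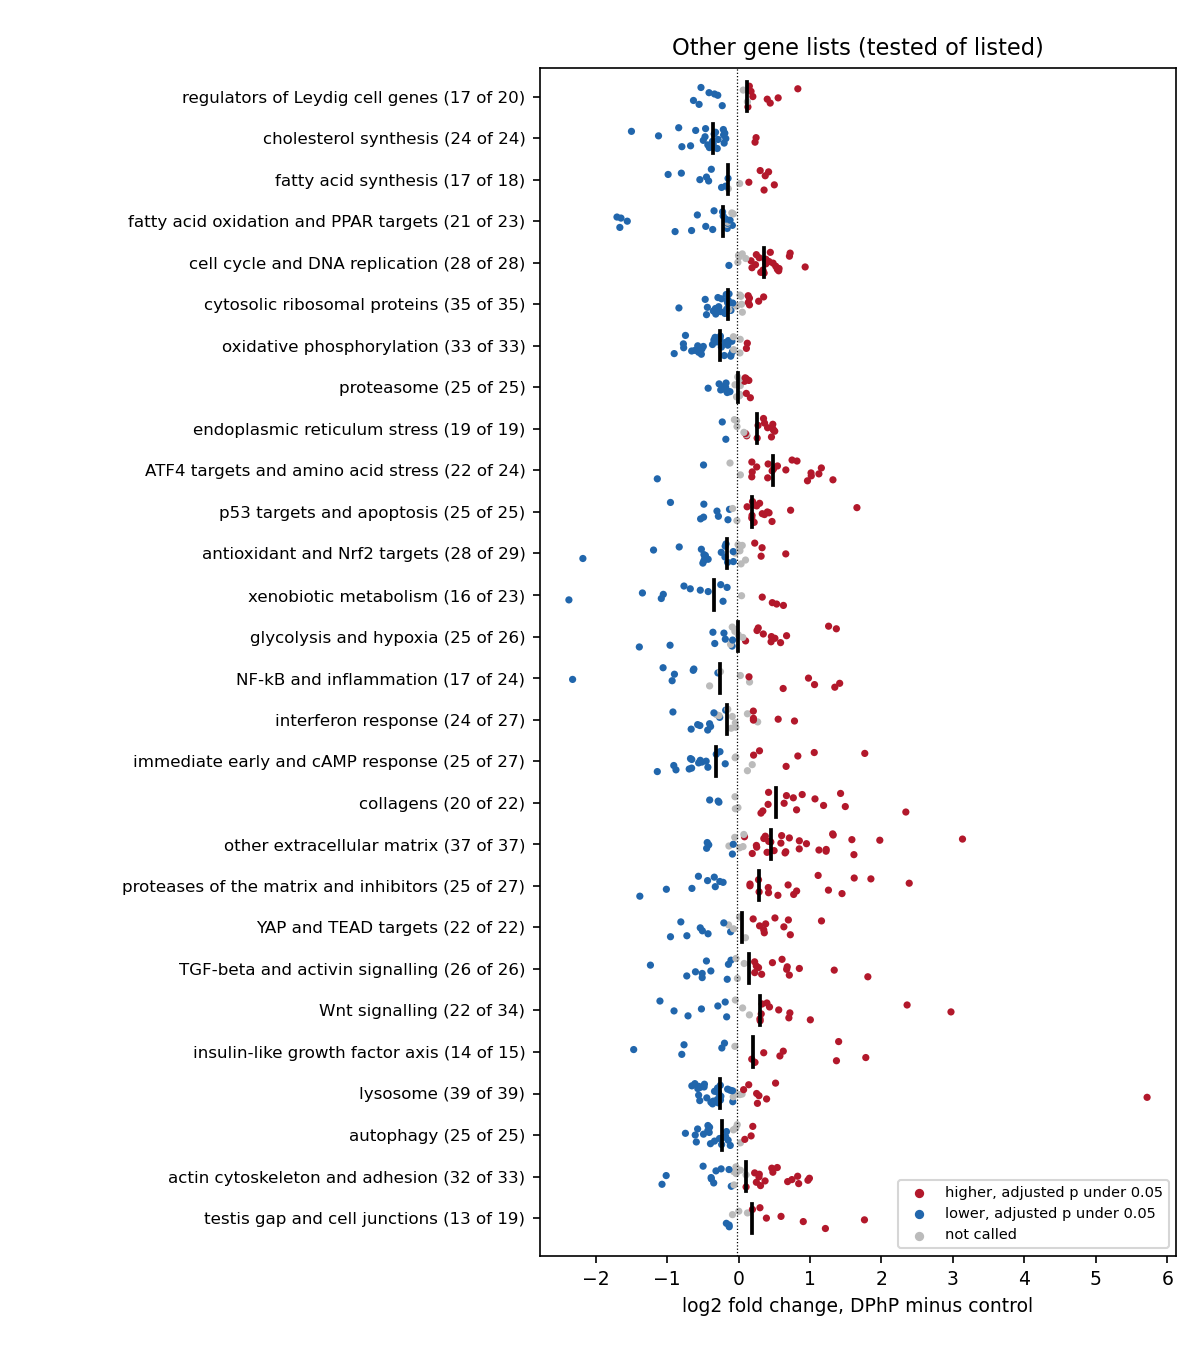
Each point is a tested gene at its log2 fold change, DPhP minus control, on the horizontal axis, and each row is a list with the number tested of the number listed. Black bars are list medians and the dotted line is the median of all tested genes. Collagens (median 0.53), ATF4 targets (0.48) and other extracellular matrix (0.45) lie to the right, cholesterol synthesis (-0.36) and xenobiotic metabolism (-0.34) to the left, and Ctsk stands alone in the lysosome row.

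Genes of cell division were higher. Of 28 tested 22 rose, none by 2-fold, and Ccnd3 alone fell (-0.14), with a median of 0.35. All tested genes had 33.1% higher and 37.9% lower. Mki67, the proliferation antigen, was at 39.76, 42.19 and 40.13 FPKM in DPhP libraries, against 24.46, 23.68 and 25.23 FPKM in control libraries (0.71). Top2a and Ccnd1 rose by 0.72 and 0.93, whereas Pcna, Mcm7 and Rrm2 were not called. Of 25 tested genes of glycolysis and hypoxia 11 were higher (44%) and 8 lower (32%), or 12 and 6 with a common sum. Vegfa was at 37.42, 33.68 and 36.76 FPKM in DPhP libraries, against 14.22, 14.44 and 14.59 FPKM in control libraries (1.26), and the lactate exporter gene Slc16a3 rose by 1.37, while Adm (adrenomedullin) fell by 1.39 on the log2 scale.

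Signalling and immune lists had members in both directions, with shares not far from the 33.1% higher and 37.9% lower of all tested genes for several of them. Of 25 tested immediate early and cAMP genes 15 were lower and 6 higher, with Fos, Dusp1 and Egr1 down (-0.91, -0.88 and -0.66) and the cAMP-degrading phosphodiesterases Pde4b and Pde4d up. Pde4b was at 7.36, 7.14 and 7.78 FPKM in DPhP libraries, against 1.55, 1.49 and 1.39 FPKM in control libraries (1.77). Of 17 tested inflammatory genes 6 were higher (35.3%) and 7 lower (41.2%). The chemokine genes Cxcl12, Ccl7 and Cxcl5 rose by 1.06, 1.35 and 1.41, and Vcam1, Nfkbia, Tnf and Lcn2 fell by 1.06, 0.90, 0.63 and 2.32. Interferon response genes were 5 higher and 10 lower of 24, with the antigen presentation genes Psmb9 and H2-K1 at -0.92 and -0.57 and Ifitm1 and Ifitm3 at 0.78 and 0.55. Of 32 tested actin and adhesion genes 16 were higher and 10 lower, with the integrin gene Itga11 up (0.99) and Cav1 (caveolin) down (-1.07). Junction genes were 7 higher and 3 lower of 13, with Jam2, Cdh3 and the connexin gene Gjc1 at 1.76, 1.22 and 0.91.

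Some of the most extreme differences lay in genes that share sequence with other genes. How reads from shared stretches were counted is not given, and its part in these differences was not tested. Genes with less than 90% unique sequence made up 8.56% of tested genes, 7.5% of those higher and 14.0% of those lower by 2-fold or more, and 29.2% of those higher and 21.4% of those lower by 4-fold or more. Ahcy, the adenosylhomocysteinase gene, was at 0.84 against 11.2 FPKM in control, but summed with Gm4737, which shares 70.8% of its stretches, it was at 38.5 against 34.7 FPKM in control. Cd300ld4 rose and Cd300ld5, which shares 90.4% of its stretches with it, was listed at 0 in DPhP. Their sum was 7.46 against 2.95 FPKM in control. Gm21451 was listed at 0 in DPhP against 28.7 FPKM in control. With Loxl2, where 84.2% of its stretches are also found, it gave 136 against 214 FPKM in control. Gm7429 was at 126 FPKM in DPhP and 0.0933 FPKM in control libraries, while Rpl30, with which it shares part of its sequence, fell (-0.84), and their sum was 486 in DPhP and 643 FPKM in control libraries. These sets were chosen after their values were seen. In all 4 genes were at 1 FPKM or more in every DPhP library and under 0.1 FPKM in every control library, among them Lefty1 (1.97 to 2.40 FPKM in DPhP and listed at 0 in control). In the opposite direction 19 genes were switched off, 12 of them listed at 0 in all DPhP libraries. Those 19 included Palmd (palmdelphin) and Trim30d, besides the globin, sperm and liver genes already given. Of the 18 with a value, 9 (50%) had less than 90% unique sequence. Gm15501, for which uniqueness could not be computed, had the highest control level of the 19. It was at 39.7, 41.39 and 40.74 FPKM in control libraries and listed at 0 in DPhP.

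DPhP and TPhP differ by a phenyl ester, and as the labels give no dose or time, matched exposure cannot be assessed and the values are given side by side. Ctsk was at 72.1 ± 0.674 FPKM in DPhP and 0.40 ± 0.074 FPKM in TPhP libraries, and Insl3 at 11.3 ± 1.02 and 543 ± 19.8 FPKM. TPhP libraries lay near control for Acta2, Col1a1, Cldn11 and Prlr, at 342, 440, 5.88 and 46.8 FPKM, where DPhP libraries had 923, 1342, 27.7 and 6.48 FPKM. Both comparisons with control share the 3 control libraries.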

How the data were processed

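Poly(A)-selected RNA of 9 libraries was sequenced, per the labels' protocols. The authors deposited 1 table of FPKM values with Entrez identifiers and symbols, given to 2 decimals, and per the submitters' processing notes the build was GRCm38.p6. Aligner, counting tool, annotation and strandedness: not given in the sources used here, so overlapping and antisense genes may share reads. FPKM are not counts, so a count model was not used. Each of the 9 columns carries the name of its library.

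Values were tested as log2(FPKM + 1), which understates the change of genes with low FPKM, in 1 limma 3.58.1 model (R 4.3.3) over all 9 libraries with a mean per group, an intensity trend and 6 residual degrees of freedom, two-sided, with Benjamini-Hochberg adjustment over 12369 genes. Intervals of spread are SDs over 3 libraries. In the text a bare signed value beside a gene is its log2 fold change, and every gene said to have risen or fallen had an adjusted p under 0.05 by limma. The fit was also run on simulated data. Few genes were changed there and no scaling, GC or length trend was put in, so the simulation does not match these data. The 44 gene lists hold 885 symbols, of which 879 were in the table and 775 were tested. Members and lists were chosen with earlier results of these data known. Named genes were the 15 largest rises and falls (mean of at least 1 FPKM, groups not overlapping, no Gm, Rik or LOC symbols), the 10 most abundant genes and the 10 largest gains and losses in FPKM, all cell type markers and Leydig regulators, up to 6 members with the smallest p per list and 8 switched genes per direction. Other list members named beside them, and the genes with shared sequence, were chosen after their values were seen. A few genes of these lists are counted but not reported here by name.

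Positions and promoters came from RefSeq (GRCm38.p6, promoters for 80.2% of tested genes), and length, GC content and unique 75-base stretches from GENCODE M21 transcripts (98.5% of tested genes), computed with pandas 2.3.3 and numpy 2.4.6 under Python 3.11.15 and drawn with matplotlib 3.10.9. Alternatives were pseudocounts of 0.1 and 0.5, no filter, a mean of at least 5 FPKM, a common sum, median-of-ratios factors, quantile normalization, 6 libraries only, a replicate block, array weights, no trend, omission of single libraries and a test against a minimum log2 fold change of 1. Added after the data were seen were at least 90% unique sequence and removal of GC and length trends by lowess.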

Additional observations from a re-analysis of the deposited data

How the results depend on the processing

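The number of genes called was 8228 to 8752 without single libraries (3781 to 4074 higher and 4407 to 4678 lower), and 675 to 708 at 2-fold or more (287 to 297 higher and 388 to 414 lower). It was 8096 to 8944 under the scaling, variance, block and GC alternatives and with pseudocounts of 0.1 and 0.5. The count at 2-fold or more depended on how low values were handled. It was 1079 (453 higher, 626 lower) with a pseudocount of 0.1 and 419 (156 higher, 263 lower) at a mean of at least 5 FPKM, where 9187 genes were tested. A test against a minimum log2 fold change of 1 called 374 (159 higher, 215 lower). The split of all calls moved most with a common sum, to 58.3% higher. The labels do not say what the replicate numbers mark. Deviations of DPhP and control libraries with the same number correlated at -0.12 to -0.02, and 0 of 3 DPhP libraries correlated best with the control library of its own number. For DPhP and TPhP they correlated at 0.02 to 0.10, and for TPhP and control at -0.09 to -0.05. With 3 libraries per group, these values do not settle whether libraries are paired. With the replicate block 8711 genes were called.

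Of 331 named genes that were called, 17 lost the call or turned in at least 1 of the 22 alternatives other than the minimum fold. The directions that turned were those of Eif2s3y (0.0043 with a common sum and 0.012 with quantile normalization), Rps2 (0.20 with quantile normalization and 0.15 with GC and length trends removed) and, with those trends removed, Ftl1 (0.22) and Rpl19 (0.0045). Of the named genes not called, 9 gained a call in at least 1 of these alternatives. They included Nr3c1, Crem, Cd68, Cd14, Ptgds, Postn and Pi16. The causes were not tested. The lists of ribosomal proteins and proteasome subunits have no direction that held under every scaling. Read depth is unknown, and genes near 0 FPKM carry little information on fold changes.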
